A study of Homo sapiens with 36 samples.

Results

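In all, 6 genes of the GATA3 circuit were followed across 7 human T cell neoplasm lines that carried a short hairpin RNA against GATA-3 or a scrambled control hairpin. They were chosen by symbol in the deposited count table, as GATA3, its divergent antisense RNA GATA3-AS1, the haematopoietic paralogues GATA1 and GATA2, and the Friend of GATA cofactor genes ZFPM1 and ZFPM2, and make up 6 of the 60628 genes in it. The rule itself uses symbols and no threshold on values. Polyadenylated RNA was sequenced in 36 libraries, 18 labelled GATA-3 knockdown and 18 labelled wild-type control with the scrambled hairpin. One class, labelled cutaneous T lymphocyte and called CTCL here for cutaneous T cell lymphoma, held 3 lines. H9 comes from a patient with Sézary syndrome and had 3 knockdown and 2 control libraries. The line that the labels write as MylaCD4+ is called MyLa here, comes from mycosis fungoides and had 3 of each, and Mac1 had 2 of each. The other class, labelled acute lymphoblastic leukaemia and called T-ALL here, held 4 lines. CCRF-CEM and SUP-T1 had 3 knockdown and 3 control libraries each, THP6 had 2 knockdown and 3 control libraries, and MOLT4 had 2 of each. Cells of both arms were grown in RPMI medium with serum. The sources used here give neither the hairpin sequences nor whether hairpin-bearing cells were clones or pools.

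GATA factors bind the DNA word WGATAR through zinc fingers and set lineage choices in blood. GATA3 drives T lineage commitment in the thymus and T helper type 2 differentiation, GATA1 drives erythroid and megakaryocytic maturation, and GATA2 maintains haematopoietic progenitors and mast cells. ZFPM1 (FOG1) and ZFPM2 (FOG2) are zinc finger proteins that bind the amino-terminal finger of GATA factors and recruit the corepressors CtBP and NuRD. GATA3-AS1 is a long noncoding RNA transcribed away from GATA3, and in human T helper type 2 cells it has been described as acting in favour of GATA3 expression.

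GATA3 (ENSG00000107485) lies at chr10:8045378-8075203 on the plus strand and GATA3-AS1 (ENSG00000197308) at chr10:8050450-8053484 on the minus strand (GRCh38, GENCODE 29). The antisense gene sits wholly inside the intron of GATA3-205, the GATA3 transcript with the farthest upstream start, and the 2 genes share 0 exon bases. Its start is 120 bases from the start of GATA3-204 and 1169 bases from the nearest start of the GATA3 transcripts with 6 exons. The sources used here do not state whether reads were counted by strand. The one annotated gene that shares exon bases with GATA3-AS1 is AL390294.1 on the opposite strand (361 bases), and it held 158 counts in all libraries together, at most 1.36 CPM. CPM here is counts-per-million on library totals scaled by the trimmed mean of M-values (TMM).

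**Figure D1:**
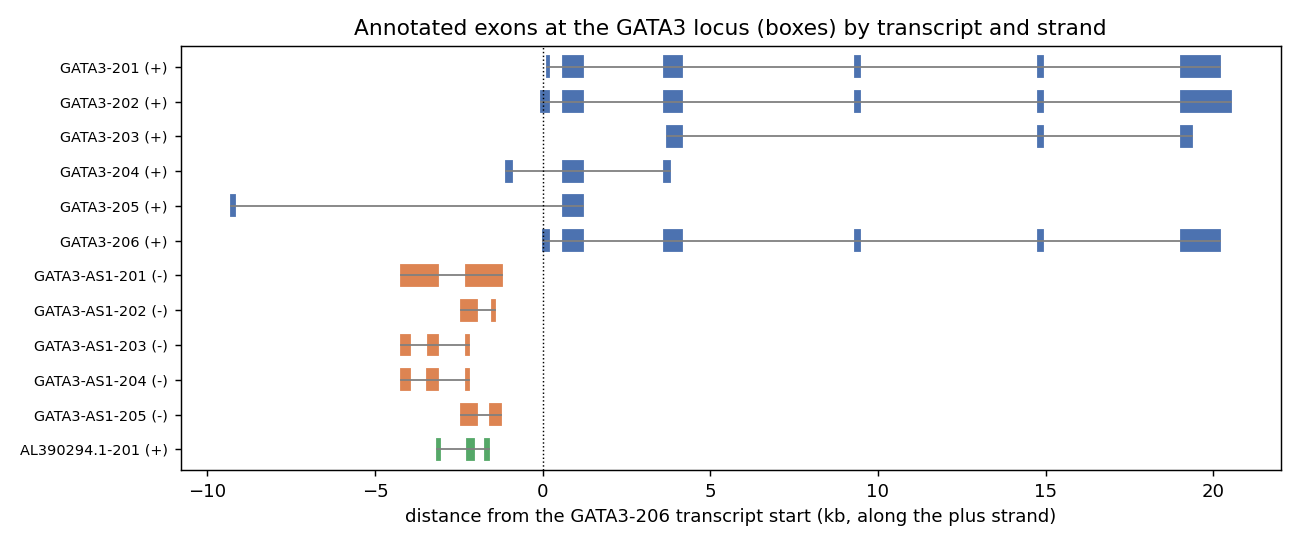
Annotated exons (boxes) of each GATA3, GATA3-AS1 and AL390294.1 transcript, with the strand in brackets, against distance in kb from the start of GATA3-206 along the plus strand. All GATA3-AS1 exons lie left of that start, between GATA3 exons, and 3 AL390294.1 exons lie among them.

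The 3 upstream windows are shown because GATA3, GATA3-AS1 and ZFPM1 were the members called in the most lines. They are plus-strand sequence from RefSeq (GRCh38.p14), cut before any GENCODE 29 exon of the gene. The first is the 119 bases between the head-to-head starts of GATA3-AS1 and GATA3-204 (chr10:8053485-8053603). The second precedes the start of GATA3-206 (chr10:8054438-8054652) and the third that of ZFPM1 (chr16:88453030-88453279). Capitals mark the CCAAT box, read as CCAAT or, on the other strand, ATTGG.
GATA3-AS1 and GATA3: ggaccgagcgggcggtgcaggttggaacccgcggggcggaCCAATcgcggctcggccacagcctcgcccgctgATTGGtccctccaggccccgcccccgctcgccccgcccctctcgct
GATA3: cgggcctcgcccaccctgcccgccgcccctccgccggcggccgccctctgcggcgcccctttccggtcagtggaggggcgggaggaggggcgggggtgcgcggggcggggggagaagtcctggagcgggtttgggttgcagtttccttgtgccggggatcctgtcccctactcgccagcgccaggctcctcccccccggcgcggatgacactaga
ZFPM1: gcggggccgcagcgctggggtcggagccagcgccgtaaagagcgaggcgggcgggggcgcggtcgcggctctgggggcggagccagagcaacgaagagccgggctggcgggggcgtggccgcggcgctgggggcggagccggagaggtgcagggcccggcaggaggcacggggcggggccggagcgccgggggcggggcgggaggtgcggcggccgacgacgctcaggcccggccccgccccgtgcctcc
Between the divergent starts there are 2 CCAAT boxes, 1 on each strand, in sequence of 77.3% GC. The GATA word WGATAR was searched as AGATAA, as AGATAG, as TGATAA and also as TGATAG, on both strands, in the 250 bases before each RefSeq start. It was found in 0 of the 13 windows of the 5 members that the table holds, and in 22.3% of all 35116 windows. The 13 windows had 55.6 to 83.2% GC, against a median of 58% over all windows, so these shares do not compare sequence of like composition. A CCAAT box stood in 6 of the 13, all of them windows of GATA3, GATA3-AS1 or GATA2, and in 32.0% of all windows. The 3 GATA3-AS1 windows and 1 of the GATA3 windows overlap, so they share these boxes. The absence of these letters from these windows says nothing about binding elsewhere.

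Library totals ran from 18.62 M to 50.63 M counts, with a median of 26.9 M (M, million-count units). Of 10 T cell marker genes, 8 to 10 were at 1 CPM or more in each arm of H9, SUP-T1, CCRF-CEM, MOLT4 and THP6. In MyLa 5 were, and CD3E, CD5, CD7, LCK and CD4 were each under 0.2 CPM on average in the controls. In Mac1 4 were, and CD3D, CD3E, CD3G, CD7 and LCK were at 0 in the controls. MyLa and Mac1 thus lacked several defining markers of the labelled cell type. CD2 was at 0.0918 to 0.503 CPM in controls of H9, CCRF-CEM, MOLT4 and THP6, and TRAC under 1 CPM in those of CCRF-CEM, MOLT4 and THP6. In H9 controls 1 of 4 B cell markers (CD79A, 186 CPM) and 2 of 5 epithelial and stromal markers (EPCAM highest, 73.3 CPM) reached 1 CPM. So did 2 of 5 myeloid markers (CD33 highest, 28.0 CPM) and COL1A1 (104 CPM) in MyLa controls, and CSF1R (38.6 CPM) in Mac1 controls. No label says that libraries of 1 group are separate cultures, and the p-values then reflect spread between libraries that may be technical. Arms of 2 or 3 libraries can also separate without overlap where nothing differs, and how many of all genes do so was not counted. Statements on overlap below are therefore descriptions of the libraries only. In RNA from whole cultures, fewer cells with a transcript and less of it per cell cannot be told apart.

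GATA3 was the most abundant member per length in the controls of every line except SUP-T1. In the SUP-T1 libraries labelled knockdown it was above ZFPM1, at 23.8 against 12.7 CPM per kb of merged exons. Among the control groups the GATA3 level was highest in MyLa, at 248 ± 6.81 CPM (SD, n = 3). It was followed by H9 at 148 ± 4.49 CPM (n = 2) and THP6 at 135 ± 9.88 CPM (n = 3). Mac1 stood at 90.3 ± 12.3 CPM (n = 2), CCRF-CEM at 86.3 ± 5.16 CPM (n = 3), MOLT4 at 64.7 ± 0.0992 CPM (n = 2) and SUP-T1 at 24.1 ± 0.394 CPM (n = 3). In that order, H9 and THP6 did not differ past the threshold (log2 difference 0.14, edgeR adjusted p = 0.191), nor did Mac1 and CCRF-CEM (log2 difference 0.06, adjusted p = 0.558). The other neighbours differed, and of all 21 pairs of control groups 19 did. Such differences are common between these lines, with 55.1 to 68.5% of 21138 tested genes called in each pair, or 63% over all pairs together, so the tests compare cultures of 2 lines and not disease classes.

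Libraries labelled GATA-3 knockdown had less GATA3 than those with the scrambled hairpin in 6 of the 7 lines. In H9 the knockdown libraries held 61.0, 63.7 and 61.9 CPM, against 151 and 145 CPM in the controls. In MyLa they held 155, 149 and 150.2 CPM, against 256, 247 and 242 CPM in the controls. In Mac1 the values were 37.7 and 43.9 CPM in knockdown and 81.6 and 99.0 CPM in control libraries. Every knockdown library of these CTCL lines lay below every control library of its line, and MyLa kept the largest share of its transcript, 60.9% of the control mean, against 42.0% in H9 and 45.2% in Mac1. In CCRF-CEM, knockdown libraries held 45.8, 41.8 and 44.9 CPM and controls 82.6, 92.2 and 84.1 CPM. In MOLT4 the knockdown libraries held 24.2 and 23.0 CPM, against 64.6 and 64.8 CPM in the controls. In THP6 they held 55.7 and 73.5 CPM, against 145, 125 and 134 CPM. Again no libraries overlapped between the arms. MOLT4 kept 36.5% of its control mean, THP6 48.0% and CCRF-CEM 51.2%, and the 2 knockdown libraries of THP6 lay farthest apart.

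SUP-T1 went against its labels. The libraries labelled knockdown held 81.3, 77.2 and 86.6 CPM of GATA3, and those labelled control 24.4, 23.6 and 24.2 CPM. All those labelled knockdown were higher than all those labelled control, by 1.76 on the log2 scale (SE 0.0856, edgeR adjusted p = 6.24e-15). Every SUP-T1 direction below is given as labelled. In the other lines the log2 fold change of knockdown over control was -1.25 (SE 0.0899) in H9, -0.72 (SE 0.0809) in MyLa, -1.15 (SE 0.102) in Mac1, -1.45 (SE 0.105) in MOLT4, -1.06 (SE 0.0941) in THP6 and -0.97 (SE 0.0833) in CCRF-CEM. The edgeR quasi-likelihood test called each of them, the highest adjusted p being 1.31e-06, in MyLa. The call stayed when any single library was left out.

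**Figure D2:**
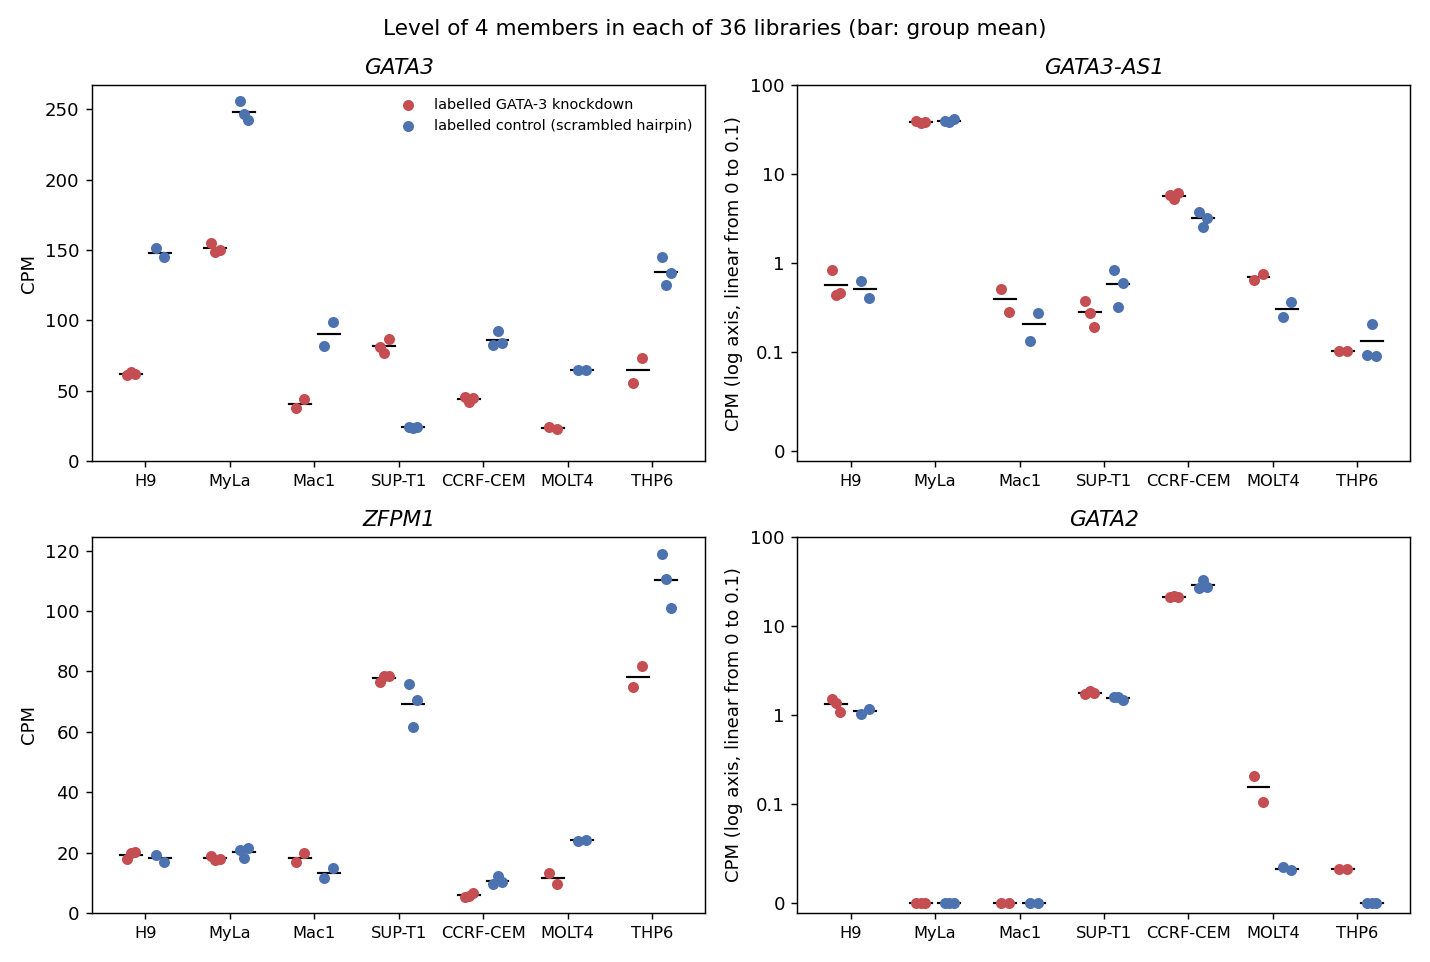
CPM of GATA3, GATA3-AS1, ZFPM1 and GATA2 in each library (points), labelled knockdown (red, left) and labelled control (blue, right), with group means as bars; the right-hand panels have a log axis that is linear from 0 to 0.1. GATA3 is lower in knockdown libraries of every line but SUP-T1, where those labelled knockdown sit at 77.2 to 86.6 CPM, above the controls. GATA3-AS1 is higher in knockdown libraries of CCRF-CEM and MOLT4, and GATA2 is at 0 in every MyLa and Mac1 library.

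Of the 5 members that passed the filter on low counts, 1 was called in H9 and 1 in MyLa, where 1.82% and 1.88% of all 21138 tested genes were called; in both it was GATA3. In Mac1 2 of 5 were called, with 7.89% of all genes, in SUP-T1 2 of 5 with 16.7%, and in THP6 2 of 5 with 7.4%. In MOLT4 3 of 5 were called, with 19.2% of all genes, and in CCRF-CEM 4 of 5, with 8.44%. GATA1 did not pass the filter. These counts include GATA3, the target of the hairpin, which was called in all 7 lines and whose call is a check of the labels. Of the other 4 members 0 were called in H9 and in MyLa, 1 each in Mac1, SUP-T1 and THP6, 2 in MOLT4 and 3 in CCRF-CEM. GATA2 and ZFPM2 had 0 counts in every MyLa and Mac1 library, so they could not be called there. Both had their highest level in CCRF-CEM, and ZFPM2 had few counts elsewhere. These tallies are therefore not alike between lines and are descriptions only.

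GATA3-AS1 spanned a far wider range of levels between lines than GATA3. Among controls it stood at 39.7 ± 1.74 CPM in MyLa and 3.18 ± 0.626 CPM in CCRF-CEM (SD, n = 3 each), and both differed from every group below them. The other 5 lines ran from 0.585 ± 0.254 CPM in SUP-T1 (n = 3) to 0.134 ± 0.0634 CPM in THP6 (n = 3), and no neighbours in that stretch differed past the threshold (lowest adjusted p = 0.15, H9 and MOLT4). Over all pairs of control groups 15 of 21 differed.

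The antisense RNA was not called lower in the line that expressed it most. In MyLa, GATA3-AS1 was at 39.1, 37.8 and 38.5 CPM in knockdown libraries and at 39.7, 37.9 and 41.4 CPM in controls. The arms overlapped, and the log2 fold change was -0.04 (SE 0.151, adjusted p = 1). In CCRF-CEM it was at 5.79, 5.21 and 6.10 CPM in knockdown libraries, against 3.78, 2.53 and 3.21 CPM in controls. Every knockdown library was higher, by 0.83 on the log2 scale (SE 0.181, adjusted p = 0.00267), and the call stayed without any single library. AL390294.1, which shares exon bases with it, was at 0.558 ± 0.0674 CPM in MyLa knockdown libraries and 1.23 ± 0.152 CPM in MyLa controls, and at 0.159 ± 0.0430 and 0.0607 ± 0.0644 CPM in those of CCRF-CEM (SD, n = 3 each). It was not called in either line (adjusted p = 0.22 and 0.376).

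In the remaining lines GATA3-AS1 rested on few reads. In MOLT4 the knockdown libraries had 19 and 22 counts and the controls 7 and 11, or 0.650 and 0.765 CPM against 0.252 and 0.364 CPM. This is a log2 fold change of 1.18 (SE 0.399, adjusted p = 0.0365) with no overlap, but the call was lost without any one of the 4 libraries (adjusted p from 0.0746 to 0.246). In SUP-T1 the libraries labelled knockdown had 10, 8 and 5 counts and those labelled control 22, 12 and 19. In CPM the arms overlapped, and the log2 fold change of -0.99 (SE 0.348, adjusted p = 0.0482) lost its call without control 1, control 3, knockdown 2 or knockdown 3. Mac1 knockdown libraries had 21 and 7 counts and controls 4 and 8, a log2 fold change of 1.012 (SE 0.469) that did not pass (adjusted p = 0.214). H9 had 20, 12 and 11 counts in knockdown and 17 and 11 in control libraries (log2 fold change 0.15, SE 0.357, adjusted p = 1), and the sign changed without control 2 or knockdown 1. THP6 had 3 and 3 counts in knockdown and 3, 6 and 2 in control libraries, too few for a comparison.

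In 3 lines GATA3-AS1 was thus called opposite to GATA3. As a share of GATA3, each scaled to CPM per kb of merged exons, the antisense RNA stood at 36.9 ± 0.285% in MyLa knockdown libraries and 23.1 ± 1.38% in MyLa controls (SD, n = 3 each). In CCRF-CEM it stood at 18.7 ± 0.867% in knockdown and 5.38 ± 1.33% in control libraries (n = 3 each), and in MOLT4 at 4.35 ± 0.651% and 0.689 ± 0.176% (n = 2 each). In H9 the shares were 1.35 ± 0.538% in knockdown (n = 3) and 0.502 ± 0.143% in control libraries (n = 2), and in Mac1 1.45 ± 0.733% and 0.323 ± 0.119% (n = 2 each). In these 5 lines every knockdown library had a higher share than every control library. SUP-T1 had 0.501 ± 0.171% in libraries labelled knockdown and 3.51 ± 1.48% in those labelled control, without overlap the other way (n = 3 each), and THP6 shares overlapped. As GATA3 is the lower part of the ratio and was the target of the hairpin, the share moves with the knockdown itself even where the antisense level does not.

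**Figure D3:**
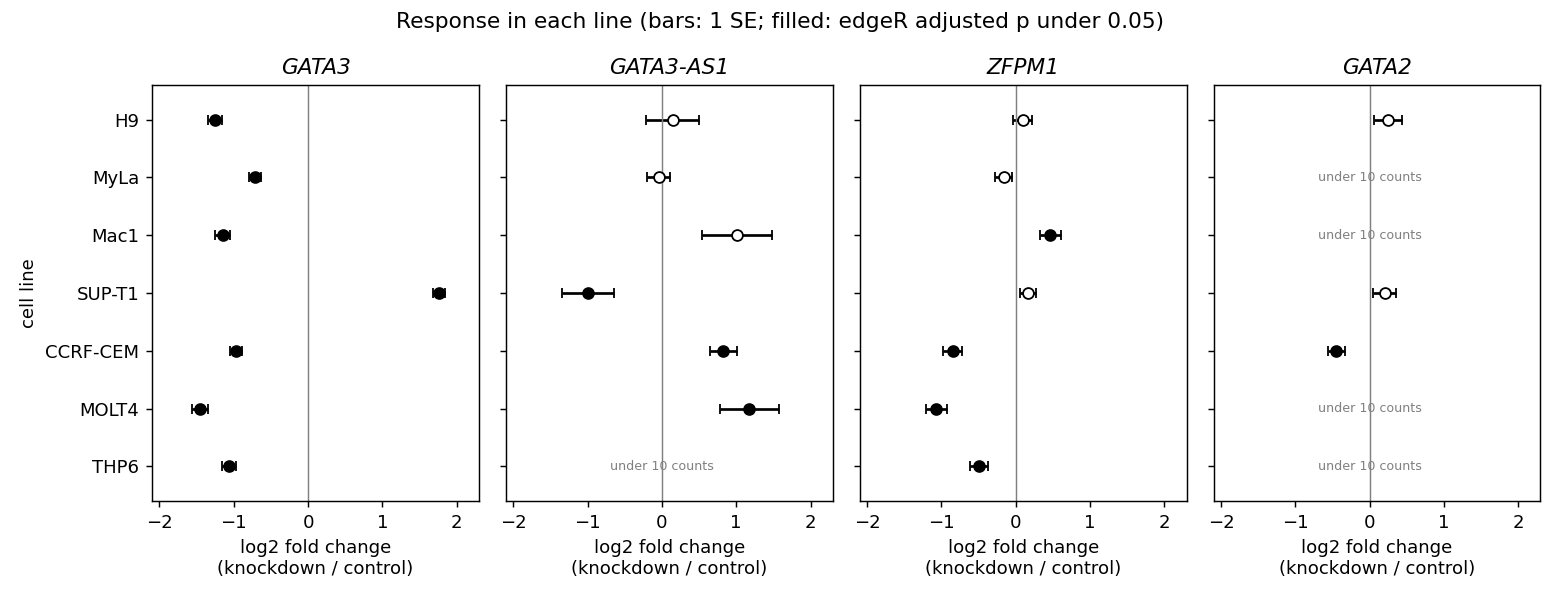
Log2 fold change of knockdown over control (x axis, with 1 SE as bars) for each line (y axis) and 4 members; filled points had an edgeR adjusted p under 0.05, and a line without a point had group means under 10 counts. Filled points of GATA3-AS1 and GATA3 lie on opposite sides of 0 in SUP-T1, CCRF-CEM and MOLT4, an open GATA3-AS1 point lies opposite GATA3 in H9 and Mac1, and ZFPM1 is lower in CCRF-CEM, MOLT4 and THP6.

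ZFPM1, the FOG1 gene (ENSG00000179588, chr16:88453317-88537016), was expressed in all 7 lines and was lower in knockdown libraries of 3 T-ALL lines. In MOLT4 it was at 13.3 and 9.67 CPM in knockdown libraries, against 23.9 and 24.3 CPM in controls. In CCRF-CEM it was at 5.42, 5.58 and 6.75 CPM in knockdown libraries, against 9.65, 12.2 and 10.3 CPM in controls. In THP6 the values were 74.8 and 81.7 CPM in knockdown and 119, 111 and 101 CPM in control libraries. No arms overlapped in these lines. The log2 fold change was -1.07 in MOLT4 (SE 0.141, adjusted p = 1.70e-06) and -0.85 in CCRF-CEM (SE 0.129, adjusted p = 3.51e-05), and both calls stayed without any single library. In THP6 it was -0.49 (SE 0.119, adjusted p = 0.0102), and the call was lost without knockdown 2 (adjusted p = 0.0977).

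In the other lines ZFPM1 was not called lower. In Mac1 it was at 16.7 and 19.7 CPM in knockdown and 11.5 and 14.8 CPM in control libraries, and rose by 0.47 on the log2 scale (SE 0.141, adjusted p = 0.0377). That call was lost without control 1 (0.419) or knockdown 2 (0.228). In H9 ZFPM1 was at 17.7, 19.98 and 20.3 CPM in knockdown and 19.3 and 16.9 CPM in control libraries. In MyLa it was at 18.7, 17.4 and 18.02 CPM in knockdown and 20.7, 18.3 and 21.4 CPM in control libraries. In SUP-T1 it was at 76.4, 78.5 and 78.3 CPM in libraries labelled knockdown and 75.9, 61.6 and 70.4 CPM in those labelled control. The arms overlapped in H9 and MyLa, and all SUP-T1 libraries labelled knockdown lay above all those labelled control. The log2 fold changes there were 0.10, -0.16 and 0.17, with edgeR adjusted p of 0.948, 0.693 and 0.338 in H9, MyLa and SUP-T1.

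Among controls ZFPM1 was highest in THP6 (110.2 ± 9.02 CPM) and SUP-T1 (69.3 ± 7.22 CPM; SD, n = 3 each) and lowest in CCRF-CEM (10.7 ± 1.35 CPM, n = 3). MOLT4 at 24.1 ± 0.313 CPM (n = 2), MyLa at 20.2 ± 1.62 CPM (n = 3) and H9 at 18.1 ± 1.67 CPM (n = 2) stood between them, and neighbours in this stretch did not differ past the threshold (adjusted p = 0.0693 and 0.286). Mac1, at 13.2 ± 2.32 CPM (n = 2), lay below H9 (adjusted p = 0.00568) and above CCRF-CEM (0.0461). Of 21 pairs 19 differed. Per kb of merged exons, ZFPM1 at 11.3 CPM exceeded GATA3 at 7.00 CPM in the libraries labelled SUP-T1 control. In those labelled SUP-T1 knockdown, ZFPM1 stood at 12.7 CPM and GATA3 at 23.8 CPM. In THP6 controls ZFPM1 reached 18.03 CPM, against 39.2 CPM for GATA3.

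GATA2 (ENSG00000179348, chr3:128479427-128493185, minus strand) had its highest level in CCRF-CEM and few or no reads in most other lines. Its knockdown libraries held 21.1, 21.7 and 21.04 CPM and its controls 26.8, 32.9 and 27.4 CPM, the knockdown libraries all being lower. The log2 fold change was -0.45 (SE 0.117, adjusted p = 0.0178), and the call was lost without control 2 (adjusted p = 0.196) and without knockdown 1, 2 or 3 (0.0718 to 0.0985). SUP-T1 held 1.71, 1.87 and 1.77 CPM in libraries labelled knockdown and 1.59, 1.58 and 1.48 CPM in those labelled control. All those labelled knockdown were higher. H9 held 1.49, 1.35 and 1.08 CPM in knockdown and 1.04 and 1.17 CPM in control libraries, which overlapped. Neither passed the test (adjusted p = 0.482 and 0.853). MOLT4 had 6 and 3 counts in knockdown and 1 and 1 in control libraries, and THP6 1 and 1 in knockdown and 0 in each control library. MyLa and Mac1 had 0 counts in every library. A count of 0 allows up to 3 counts, which is 0.108 to 0.129 CPM in the MyLa libraries and 0.0730 to 0.120 CPM in those of Mac1, for counting error only.

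The GATA2 order among controls was CCRF-CEM at 29.1 ± 3.37 CPM (SD, n = 3), SUP-T1 at 1.55 ± 0.0630 CPM (n = 3), H9 at 1.10 ± 0.0926 CPM (n = 2) and MOLT4 at 0.0345 ± 0.00207 CPM (n = 2). SUP-T1 and H9 differed by 0.49 on the log2 scale (adjusted p = 0.0386), CCRF-CEM and SUP-T1 by 4.23 (8.09e-17), and MOLT4 and MyLa did not differ past the threshold (adjusted p = 0.0875). The GATA2 antisense gene GATA2-AS1 shares 0 exon bases with GATA2 and was in H9 at 1.41 ± 0.365 CPM in knockdown (n = 3) and 1.45 ± 0.145 CPM in control libraries (n = 2). In CCRF-CEM, the line with the most GATA2, it stood at 0.0224 and 0.0515 CPM.

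ZFPM2, the FOG2 gene (ENSG00000169946, chr8:104590733-105804532), held 438 counts in all, nearly all in CCRF-CEM. There it was at 3.09, 2.56 and 3.05 CPM in knockdown and 1.85, 2.64 and 2.60 CPM in control libraries. The arms overlapped (log2 fold change 0.29, SE 0.301, adjusted p = 0.687). The SUP-T1 libraries labelled knockdown had 0, 0 and 1 counts and those labelled control 4, 6 and 1, with an adjusted p of 0.0513. THP6 had 1 and 0 counts in knockdown and 6, 4 and 1 in control libraries, MOLT4 0 and 0 in knockdown and 1 and 2 in control libraries, and H9 a single count. In MyLa and Mac1 it was at 0 in every library. ZFPM2 and GATA2 thus had their highest control level in the same line, and across the means of the 7 control groups their log2 levels had a Pearson r of 0.92, which rests on CCRF-CEM as the one line with more than traces of ZFPM2. For GATA3 and GATA3-AS1 the same r was 0.51.

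GATA1 (ENSG00000102145, chrX:48786554-48794311), the erythroid and megakaryocytic member, was near 0 throughout. It held 18 counts in all, at most 2 in a library, in 15 of 36 libraries, and was not tested. The largest group total was 5 counts, in CCRF-CEM controls, against 2 in CCRF-CEM knockdown libraries, and H9 and Mac1 had 0 in both arms.

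**Figure D4:**
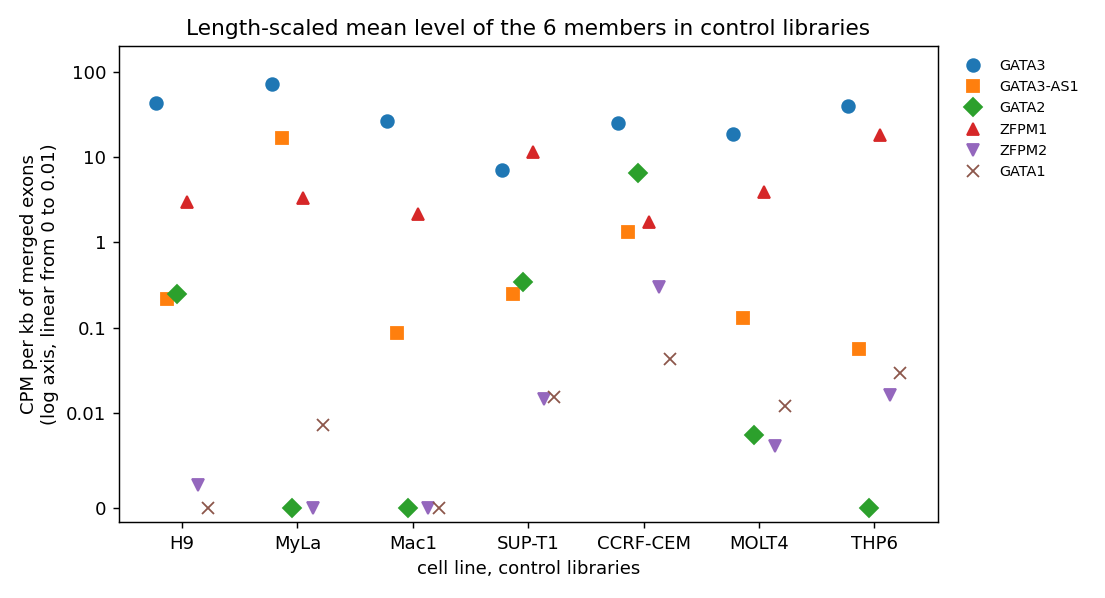
Mean level of each member in the control libraries of each line, as CPM per kb of GENCODE 29 merged exons on a log axis that is linear from 0 to 0.01. GATA3 is the top symbol in each line but SUP-T1, where ZFPM1 stands at 11.3 and GATA3 at 7.00. In the SUP-T1 libraries labelled knockdown, which are not drawn, ZFPM1 was at 12.7 and GATA3 at 23.8. The antisense RNA has its highest level in MyLa, at 16.7 against 72.3 for GATA3.

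Responses of the members differed between lines by a test of the differences themselves. Across all 7 lines the edgeR test gave an adjusted p of 2.90e-16 for GATA3, 6.22e-07 for ZFPM1, 0.00264 for GATA3-AS1, 0.00353 for GATA2 and 0.0441 for ZFPM2, so that 5 of 5 tested members were called, with 35.2% of all genes. Over the 6 lines without SUP-T1, 4 of 5 were called, with 25% of all genes. There the adjusted p was 3.25e-06 for ZFPM1, 0.0014 for GATA3, 0.0123 for GATA2, 0.0259 for GATA3-AS1 and 0.125 for ZFPM2. The depth of the GATA3 decrease therefore varied between lines beyond the spread of libraries, from -0.72 in MyLa to -1.45 in MOLT4.

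With the line as the replicate, counts were summed per line and arm. The mean log2 response was -0.76 for GATA3 (SE 0.307, edgeR adjusted p = 1), -0.26 for ZFPM1 (SE 0.165) and 0.27 for GATA3-AS1 (SE 0.24), and 0 of the 5 members were called, with 0.00435% of all 22965 genes. GATA3 was lower in 6 of 7 lines, and it alone among the members had an unadjusted edgeR p under 0.05 (0.0289). Without SUP-T1 its mean response was -1.11 (SE 0.0892, adjusted p = 0.00185), lower in 6 of 6 lines, while GATA3-AS1 was at 0.47 (SE 0.208, adjusted p = 0.855) and ZFPM1 at -0.34 (SE 0.177, adjusted p = 0.929). The ZFPM1 response of the CTCL lines minus that of the T-ALL lines was 0.69 (SE 0.277, unadjusted p = 0.0304, adjusted p = 1) and 0.94 without SUP-T1 (SE 0.21, unadjusted p = 0.00111, adjusted p = 0.69), so a class difference did not pass the test. That test called 0 members as well, with 0.00435% of all genes. No control level passed the test between classes either. The CTCL minus T-ALL difference was 1.10 for GATA3 (SE 0.582, adjusted p = 0.463), 3.69 for GATA3-AS1 (SE 1.91, adjusted p = 0.456), -4.37 for GATA2 (SE 3.27, adjusted p = 0.617) and -1.62 for ZFPM1 (SE 0.775, adjusted p = 0.421). None of these 4 was called, with 0.28% of 18565 genes, nor was any under an unadjusted p of 0.05, and the GATA3-AS1 difference turned to -1.57 without MyLa. The GATA3 difference was 0.62 without MyLa and the ZFPM1 difference -0.99 without THP6. Without H9 the GATA2 difference was -12.15, a fitted value against 0 counts in MyLa and Mac1 that depends on the prior count and is no bound.

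Genes upstream of GATA3 were followed next: NOTCH1 and RBPJ of the Notch pathway, the thymic factors TCF7 and MYB, and STAT6, IL4R, STAT5A and STAT5B of the interleukin routes. All 8 were tested. In MOLT4 knockdown libraries 5 were lower and 0 higher (19.2% of all tested genes were called there), with a median log2 fold change of -0.48 over the list and 0 over all genes. The signal transducer STAT5A was there at 135 ± 2.53 CPM in knockdown and 302 ± 1.496 CPM in control libraries (SD, n = 2 each; log2 fold change -1.16, SE 0.0827). MYB was at 386 ± 23.7 CPM in knockdown and 740.2 ± 9.20 CPM in control libraries (-0.94, SE 0.16). STAT5A was also lower in CCRF-CEM, at 270.4 ± 9.73 CPM in knockdown and 455 ± 28.2 CPM in control libraries, and in MyLa, at 678 ± 14.6 and 817 ± 17.9 CPM (n = 3 each), and it was higher in SUP-T1 libraries labelled knockdown (10.99 ± 1.21 CPM) than in those labelled control (5.52 ± 0.624 CPM). Elsewhere 0 genes of the list were higher and 2 lower in MyLa (1.88% of all genes called), 3 and 0 in Mac1 (7.89%), 3 and 1 in SUP-T1 (16.7%), 0 and 1 in CCRF-CEM (8.44%), 0 and 1 in THP6 (7.4%), and 0 and 0 in H9 (1.82%). Of the 10 T cell markers 7 were higher and 0 lower in MOLT4 knockdown libraries, with a summed level of 3060 to 3177 CPM in knockdown and 2096 to 2135 CPM in control libraries, and 0 were higher and 6 lower in SUP-T1 libraries labelled knockdown. Their part in the other MOLT4 and SUP-T1 differences was not tested.

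Of the corepressor genes that FOG proteins recruit (CtBP and NuRD subunits), 15 of 15 were tested. In H9, MyLa and CCRF-CEM 0 were called, where 1.82%, 1.88% and 8.44% of all genes were. In Mac1 and THP6 1 each was higher (6.67% of the list), near the 7.89% and 7.4% of all genes called there. In SUP-T1 4 were higher and 1 lower (33.3% of the list, 16.7% of all genes), and in MOLT4 5 were higher and 3 lower (53.3% and 19.2%). Medians of the list lay between -0.03 and 0.09 on the log2 scale, where the median of all tested genes was 0 in every line. CHD3, a NuRD remodelling ATPase, was called lower in MOLT4 and higher in SUP-T1 and THP6. It was at 20.5 ± 0.419 CPM in MOLT4 knockdown and 38.5 ± 1.91 CPM in MOLT4 control libraries (log2 fold change -0.91, SE 0.212), and at 287 ± 49.0 CPM in SUP-T1 libraries labelled knockdown and 171 ± 6.76 CPM in those labelled control (0.75, SE 0.162). In THP6 it was at 271 and 636 CPM in knockdown and 242, 249 and 273 CPM in control libraries. Knockdown 1 lay within the range of the controls, and the fitted log2 fold change was 0.83 (SE 0.178, adjusted p = 0.00442). The histone deacetylase gene HDAC1 was higher in SUP-T1 libraries labelled knockdown, at 449 ± 29.8 CPM against 318 ± 11.4 CPM.

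Partners of GATA3 and regulators of its protein were called in 6 lines. Of 17 listed, 16 were tested, with list medians from -0.20 in MOLT4 to 0.15 in Mac1. In knockdown libraries, 1 was higher and 5 lower in MOLT4 (37.5% of the tested list and 19.2% of all genes), 4 and 2 in THP6 (37.5% and 7.4%), and 1 and 4 in SUP-T1 (31.25% and 16.7%). Both THP6 shares depend on the shared fit, as 0 genes were called with that line fitted alone. In CCRF-CEM 2 were higher and 1 lower (18.75% and 8.44%), in Mac1 2 and 0 (12.5% and 7.89%), in H9 0 and 1 (6.25% and 1.82%) and in MyLa 0 and 0 (1.88% of all genes). FBXW7, the ubiquitin ligase subunit that degrades phosphorylated GATA3, was higher in knockdown libraries of 4 lines. It stood at 39.1 ± 0.676 CPM in Mac1 knockdown and 26.1 ± 1.28 CPM in control libraries (n = 2 each; log2 fold change 0.58, SE 0.0858). In CCRF-CEM it stood at 29.8 ± 0.467 and 21.9 ± 0.693 CPM in knockdown and control libraries (0.44, SE 0.0716), in MOLT4 at 53.8 ± 0.407 and 45.3 ± 0.115 CPM (0.25, SE 0.0842) and in THP6 at 34.6 ± 1.15 and 28.7 ± 0.995 CPM (0.27, SE 0.0781). In SUP-T1 it was at 22.7 ± 1.81 CPM in libraries labelled knockdown and 62.0 ± 1.85 CPM in those labelled control (-1.45, SE 0.0709). In each of these 5 lines, those where FBXW7 was called, its sign was opposite to that of GATA3. In H9 and MyLa it was not called (log2 fold change 0.18 and -0.19), and in MyLa it had the same sign as GATA3. FBXW7 was named because it was called one way in the most lines of its list, so its run over lines reflects that choice. A link to GATA3 was not tested. LYL1, a basic helix-loop-helix factor of immature T-ALL, was lower in CCRF-CEM (41.9 ± 3.05 CPM in knockdown and 132 ± 11.7 CPM in control libraries; -1.66, SE 0.118) and in THP6 (76.1 ± 3.16 and 117 ± 10.4 CPM; -0.62, SE 0.13). It was also called lower in MOLT4, at 0.0687 and 0.327 CPM in knockdown and control libraries.

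Most targets that GATA1 and GATA2 activate in erythroid cells, megakaryocytes and mast cells had few reads, with 2 to 5 at 1 CPM or more in each arm of a line. EPOR, described below, was an exception, and so was KIT, at 42.5 CPM in MOLT4 controls and 1.70 CPM in SUP-T1 controls. Of 25 listed, 8 passed the filter, with list medians from -0.59 in CCRF-CEM to 0.25 in Mac1. In every line 0 of these 8 were called higher, where 0.852 to 8.88% of all tested genes were. In Mac1 1 was lower (12.5% of the tested list and 7.89% of all genes called), and in CCRF-CEM 1 (12.5% and 8.44%). In MOLT4 2 were lower (25% and 19.2%), in THP6 2 (25% and 7.4%), and in H9, MyLa and SUP-T1 0. Several of the 8 had few reads in most lines, so they could hardly be called there. HBA1 and HDC reached at most 0.502 and 0.779 CPM. KIT was at 0 in the controls of H9, MyLa, Mac1, CCRF-CEM and THP6. These counts and the list medians are therefore limited by level and are descriptions only. With THP6 fitted alone, 0 of all its genes were called. The erythropoietin receptor gene EPOR was lower in CCRF-CEM (16.9 ± 0.518 CPM in knockdown and 28.1 ± 0.164 CPM in control libraries; log2 fold change -0.73, SE 0.0768), in Mac1 (4.78 ± 0.392 and 6.39 ± 0.613 CPM; -0.42, SE 0.107) and in THP6 (41.0 ± 0.803 and 49.5 ± 3.49 CPM; -0.27, SE 0.0828). NFE2, a leucine zipper factor of megakaryocytes, was lower in MOLT4 (0.396 ± 0.117 CPM in knockdown and 8.67 ± 0.324 CPM in control libraries; -4.43, SE 0.474) and in THP6 (0.625 ± 0.342 and 1.94 ± 0.541 CPM; -1.61, SE 0.432). KLF1, the erythroid Krüppel-like factor gene, was lower in MOLT4 (0.380 ± 0.102 and 1.17 ± 0.223 CPM; -1.61, SE 0.385). Of the other GATA family genes, GATA4 and GATA5 were untested at under 0.04 CPM. TRPS1, which encodes an atypical GATA repressor, was at 55.7 ± 0.904 CPM in Mac1 knockdown and 53.5 ± 2.88 CPM in Mac1 control libraries, and in CCRF-CEM it was lower at 0.347 ± 0.251 CPM in knockdown and 0.850 ± 0.0696 CPM in control libraries (adjusted p = 0.0387). GATA6 reached 8.11 CPM in MyLa controls and 1.95 CPM in H9 controls.

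Around GATA3, 27 annotated genes lie within 1 Mb, and 8 of them were tested, GATA3-AS1 included. The Polycomb-associated gene SFMBT2 was lower in Mac1 (13.7 ± 0.337 CPM in knockdown and 19.9 ± 0.0303 CPM in control libraries; adjusted p = 0.0427) and in MOLT4 (18.3 ± 2.48 and 25.7 ± 0.485 CPM; 0.0341). TAF3, of the general transcription factor TFIID, was higher in MOLT4 (51.4 ± 0.0847 and 42.2 ± 1.19 CPM; 0.00934), and KIN was lower in SUP-T1 libraries labelled knockdown (9.07 ± 1.96 CPM) than in those labelled control (12.1 ± 1.13 CPM; 0.0479). ATP5F1C, AL139125.1, AL390294.1 and AL390835.1 were called in no line. In CCRF-CEM GATA3-AS1 was the one tested neighbour that was called, and 1 of 8 is near the 8.44% of all tested genes called there. In Mac1, MOLT4 and SUP-T1 7.89%, 19.2% and 16.7% of all tested genes were called.

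Genes whose control levels rose and fell most like each member's were sought by the Pearson correlation of mean log2(CPM + 0.5) over the 7 control groups. The search covered about 11646 genes with a mean of at least 5 CPM and is a description over 7 points. Such a correlation takes no account of the level or of the size of the differences. Nearest to GATA3 were TTC31 (r = 0.987), WDR45B (0.981) and the lncRNA BISPR (0.97). GATA3-AS1 was most like RAB34 (0.991), SCG2 (0.988) and TNFRSF4 (0.987), which had 72.2, 34.9 and 421 CPM in MyLa controls and 6.08, 3.48 and 7.44 CPM in CCRF-CEM controls. For ZFPM1 they were FRG1 (0.981), UBXN2A (0.975) and SVBP (0.972), for GATA2 LRPAP1 (0.957), SGTA (0.951) and RPL14P1 (0.94), and for ZFPM2 BMX (0.993), PLA2G3 (0.99) and UQCC3 (0.967). BMX and PLA2G3 were at 43.2 and 46.6 CPM in CCRF-CEM controls and under 0.2 CPM in every other line. LRPAP1 ran only from 77.5 CPM in MyLa to 132 CPM in CCRF-CEM controls, while GATA2 ran from 0 to 29.1 CPM. The matches of GATA2 and ZFPM2 rest largely on CCRF-CEM.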

How the data were processed

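RNA was made into libraries by poly(A) selection, per the labels' protocols. The deposited values are expected counts per gene that the authors made, per the submitters' processing notes, with cutadapt 2.3, STAR 2.7.8a and RSEM 1.3.3 on GRCh38. The sources used here state neither the annotation release nor the strand setting. All values were already whole. Libraries were grouped by line and arm from their titles. SUP-T1 libraries carry running numbers in the cell line field, and their titles were used.

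The members and gene lists were chosen with earlier results of these data known. For each line, edgeR 4.0.16 (under R 4.3.3) used a single model of the 36 libraries with 14 group means, TMM scaling and filterByExpr (21138 genes). It tested knockdown over control by quasi-likelihood F tests and adjusted p-values by the Benjamini-Hochberg method over all tested genes, with 0.05 as the threshold. The common dispersion was 0.01178. SEs are the log2 fold change over the square root of F. Differences between lines and between control groups came from the same fit. Tests over lines used counts summed per line and arm (22965 genes), with line as covariate, and the class test used control sums per line (18565 genes). CPM per kb used merged exons of GENCODE 29, which holds 96.5% of the deposited gene identifiers.

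Named list genes are those called one way in the most lines, up to 4 per list, of which some are described; neighbours are tested genes within 1 Mb. Replicate numbers showed no sign of pairing libraries: the 17 correlations of residuals between same-numbered libraries of a line ran from -0.0444 to 0.0779, none over 0.1. In Mac1 and MOLT4, with 2 libraries in each arm, the 2 correlations are the same value by construction. Low correlations do not exclude a pairing. Replicates differed beyond sampling noise (chi-square per degree of freedom of at least 3.67). Alternatives were DESeq2 1.42.0, DESeq2 size factors, no filter, each line fitted alone, a replicate block, and leaving out libraries or lines. The tests were first tested on simulated data. Precision is limited by 2 or 3 libraries a group and, for GATA1, GATA2, ZFPM2 and GATA3-AS1, by few counts.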

Additional observations from a re-analysis of the deposited data

Results flagged for a closer look

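The response to the GATA3 hairpin differed between the 7 lines for each of the 5 members tested, by the edgeR test of the differences between lines. The adjusted p was 2.9e-16 for GATA3, 6.22e-07 for ZFPM1, 0.00264 for GATA3-AS1, 0.00353 for GATA2 and 0.0441 for ZFPM2. SUP-T1, where GATA3 went against the labels, carries part of this: without it the adjusted p was 0.0014 for GATA3 and 0.125 for ZFPM2, which has counts in the single digits outside CCRF-CEM. Of all tested genes 35.2% were called by the same test, and no cause was tested.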

How the results depend on the processing

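The GATA3 direction within each line held under every alternative run, and its call was lost only when THP6 was fitted alone (log2 fold change -1.04, adjusted p = 0.753), where edgeR called 0 genes (797 at an unadjusted p under 0.05, and 2083 by DESeq2 over all libraries). Counts of called genes moved more. With each line fitted alone they were 1374 in MyLa, 2752 in Mac1 and 6797 in MOLT4, and with DESeq2 650 in H9 and 612 in MyLa. With the replicate block, whose numbers showed no sign of pairing the libraries, they were 220 in H9, 243 in MyLa and 472 in THP6. The edgeR adjusted p of ZFPM1 in Mac1 was then 0.0502, and no other call on a member changed. Leaving out 1 library gave 108 to 316 in H9, 196 to 249 in MyLa, 562 to 1033 in Mac1, 2572 to 2963 in SUP-T1, 1083 to 1547 in CCRF-CEM, 2260 to 2775 in MOLT4 and 74 to 7900 in THP6 (74 without knockdown 2, 7900 without knockdown 1), where an arm of 1 library is assumed to vary like the other groups. Of the values for members under left-out libraries, 108 kept direction and side of the threshold, 15 lost their call and 3 reversed: GATA3-AS1 in H9 (-0.16 and -0.20; range -0.20 to 0.49) and ZFPM1 in H9 (-0.0098; range -0.0098 to 0.18). With no filter the adjusted p was 0.0525 for GATA3-AS1 in SUP-T1 and 0.128 for GATA2 in CCRF-CEM, and with lines fitted alone 0.117 for GATA3-AS1 in SUP-T1, 0.0695 for ZFPM1 in Mac1 and 0.753 for ZFPM1 in THP6. Without SUP-T1 the mean response called 5 genes and GATA3 at -1.11, the class difference of responses called 0 (844 at an unadjusted p under 0.05), and that difference for GATA3 turned to 0.13. The control class test called 338 genes without H9, 14 without MyLa, 12 without Mac1, 30 without SUP-T1, 20 without CCRF-CEM, 22 without MOLT4 and 15 without THP6, and GATA3-AS1 turned to -1.57 without MyLa. The cause of these changes was not tested. Few counts limit GATA3-AS1 outside MyLa and CCRF-CEM, and GATA2 and ZFPM2 outside CCRF-CEM.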

Other observations

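CTBP2, one of the pair of CtBP corepressor genes that FOG proteins bind, was split between the lines; it was singled out after its values were seen. Control means were 75.9 CPM in H9, 52.8 CPM in Mac1 and 34.8 CPM in MOLT4, and 0.347 CPM or less in MyLa, SUP-T1, CCRF-CEM and THP6. Its partner CTBP1 ran from 134 CPM in Mac1 to 393 CPM in THP6. TCF7, among the inducers of GATA3, was at 0.0678 CPM in Mac1 controls and at 1124 CPM in MOLT4 controls, while GATA3 stood at 90.3 and 64.7 CPM in the same libraries. NOTCH1 was at 1886 CPM in the libraries labelled SUP-T1 control, whose GATA3 was the lowest of the control groups. TCF7 and NOTCH1 were also singled out after their values were seen. Among controls as labelled, STAT5A and STAT5B, like GATA3, were highest in MyLa (817 and 510 CPM) and lowest in SUP-T1 (5.52 and 129 CPM). STAT6 was highest in MyLa controls (329 CPM) but lowest in those of MOLT4 (99.7 CPM). IL4R was lowest in SUP-T1 controls (4.87 CPM) but highest in those of Mac1 (212 CPM). RBPJ and MYB were lowest in MyLa controls (54.02 and 134 CPM). RBPJ was close to that in SUP-T1 and CCRF-CEM controls (55.2 and 55.4 CPM). Whether these levels follow GATA3 was not tested.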
